A study of Rattus norvegicus with 4 samples.

Results

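Fos, Fosl2, Egr1, Cebpd, Id1 and Hes1 encode transcription factors that cells switch on early after a stimulus. They were read on arrays of rat liver RNA taken 1 h after the bile duct had been tied or sham-operated. The genes were taken by name: every probe whose platform annotation gives exactly 1 gene symbol, that symbol being one of the 6. This gave 8 probes of 6 genes, out of 1432 single-symbol probes of 958 genes, with 2 probes each for Fosl2 and Hes1 and 1 for each of the others. The 6 genes were chosen by their function and by their log ratios for the operation, known from an earlier reading of the same 4 arrays. Values of the operation therefore describe them, and calls made on them are given without p-values and support nothing.

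The animals were male Sprague-Dawley rats, of an age the labels do not give, and the right lateral lobe of the liver was taken. In the ligated rats the common bile duct was tied between the liver and the gut; in the sham rats it was exposed but not tied. Both had their abdomen opened under ether, so each ratio sets one operated liver against another, and no unoperated liver was analysed here. Liver RNA from groups of 3 rats was mixed, and 4 two-colour cDNA arrays each compared a ligated with a sham sample. The ligated sample was in Cy5 on arrays 1 and 3, and in Cy3 on arrays 2 and 4, per the source names; the protocol text repeated for every array gives only the former orientation. Nothing in the labels says that the arrays came from separate pools, so p-values measure only the spread between arrays, which may be technical.

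Fos and Fosl2 (Fra-2) are leucine zipper proteins that pair with Jun proteins to form AP-1, and Egr1 is a zinc finger factor. Fos and Egr1 are classical immediate early genes: kinase signals turn them on from factors already in the cell, before any new protein is made, and surgery and liver injury are known stimuli. Cebpd is a leucine zipper factor of the C/EBP family, induced in liver by IL-6 through STAT3 during the acute phase response. Id1 lacks a DNA-binding region and holds basic helix-loop-helix proteins away from DNA, and is a known target of bone morphogenetic protein (BMP) signals. Hes1 is a helix-loop-helix repressor, the best known target of Notch, and represses its own gene.

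The stretch of 250 bases before the transcription start is shown for Egr1 and Hes1, which had more motif matches than the other genes searched. Of the 6 genes, 4 matched the RefSeq promoter table (Fosl2, Egr1, Id1 and Hes1; GRCr8), and Fos and Cebpd did not. Both strands were searched for the serum response element, the core TGACG of the cAMP response element, the AP-1 site TGANTCA, the core TGGGAA bound by the Notch partner RBPJ, the N box CACNAG bound by Hes1, and the EGR site GCGNGGGCG. Capitals mark every match. The first sequence lies at chr18:26736828-26737077 on the plus strand and the second at chr11:84213046-84213295 on the minus strand, each written 5′ to 3′ along its gene.
Egr1: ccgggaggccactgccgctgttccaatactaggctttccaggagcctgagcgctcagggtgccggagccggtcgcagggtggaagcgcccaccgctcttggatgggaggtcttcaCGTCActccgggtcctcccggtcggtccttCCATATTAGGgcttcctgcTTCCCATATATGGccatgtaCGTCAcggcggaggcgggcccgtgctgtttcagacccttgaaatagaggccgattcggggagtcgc
Hes1: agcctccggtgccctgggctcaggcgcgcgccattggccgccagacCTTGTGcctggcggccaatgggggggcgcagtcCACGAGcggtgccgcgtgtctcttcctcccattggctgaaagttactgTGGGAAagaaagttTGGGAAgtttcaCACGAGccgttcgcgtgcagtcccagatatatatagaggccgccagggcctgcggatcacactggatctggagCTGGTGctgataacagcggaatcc

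The Egr1 stretch held 2 serum response elements, CCATATTAGG and CCATATATGG, starting at positions -105 and -83 from the start site. Of 33469 such stretches of 27457 rat genes, 1.50% held at least 1 and 0.0209% held 2 or more. It also held 2 TGACG matches (at least 1 in 18.2% of stretches) and 1 RBPJ core, which overlaps the second serum response element. The Hes1 stretch held 2 RBPJ cores and 4 N boxes; 2.71% of stretches held 2 or more such cores and 8.02% held 2 or more N boxes. Fosl2 held 1 EGR site (4.29% of stretches), and Id1 held none of the 6 motifs. None of the 4 stretches held an AP-1 site (6.34% of stretches). A match says only that these letters are there.

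Each array gave a log ratio for each of 1936 probes, with 0 missing values, read as ligated over sham. That direction is likely rather than stated. The labels name sham as the first channel and ligated as the second, and the array medians (-0.88, 0.75, -0.73 and 0.87) change sign with the dye, as ratios of one operation over the other would with a dye bias. Every sign below would turn if the ratios ran the other way. The base of the log is unknown, so values are given on the deposited scale. A ratio holds no level: the labelled tissue could not be checked against hepatocyte markers, nor could the genes be ordered by abundance. Of 43 marker genes of hepatocytes and other liver cell types, 9 were measured; of their 13 probes 1 passed as higher and 1 as lower. The first was a probe of Col1a1, a fibroblast marker (0.34; its other probe had 0.095). The second was a block 3 probe of the blood marker Pf4 (-0.30; its other probe had 0.14). The 4 hepatocyte probes lay between -0.24 and -0.042, and none passed. In mixed tissue, fewer cells of a type and less RNA per cell cannot be told apart.

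Each array was centred on its median, and limma fitted an operation and a dye term to every probe. The dye-adjusted value of a probe is its centred value on an array without its own dye term, so that the mean of the 4 is the estimate for the operation. Of the 8 probes 1 passed an adjusted p of 0.05, Fos, as higher; 5.73% of all probes passed, 0.930% as higher and 4.80% as lower. This count describes the choice of genes and nothing is read from it. By the estimate, the order from high to low was Fos, Egr1, Hes1 probe 442, Fosl2 probe 651, Fosl2 probe 1744, Hes1 probe 202, Cebpd and Id1. Fos stood at 0.38 and the next 3 between 0.16 and 0.20, while the SE was 0.083 to 0.094 for every probe, so each probe lay within the sum of the SEs from its neighbour in this order, Fos and Egr1 included.

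**Figure D1:**
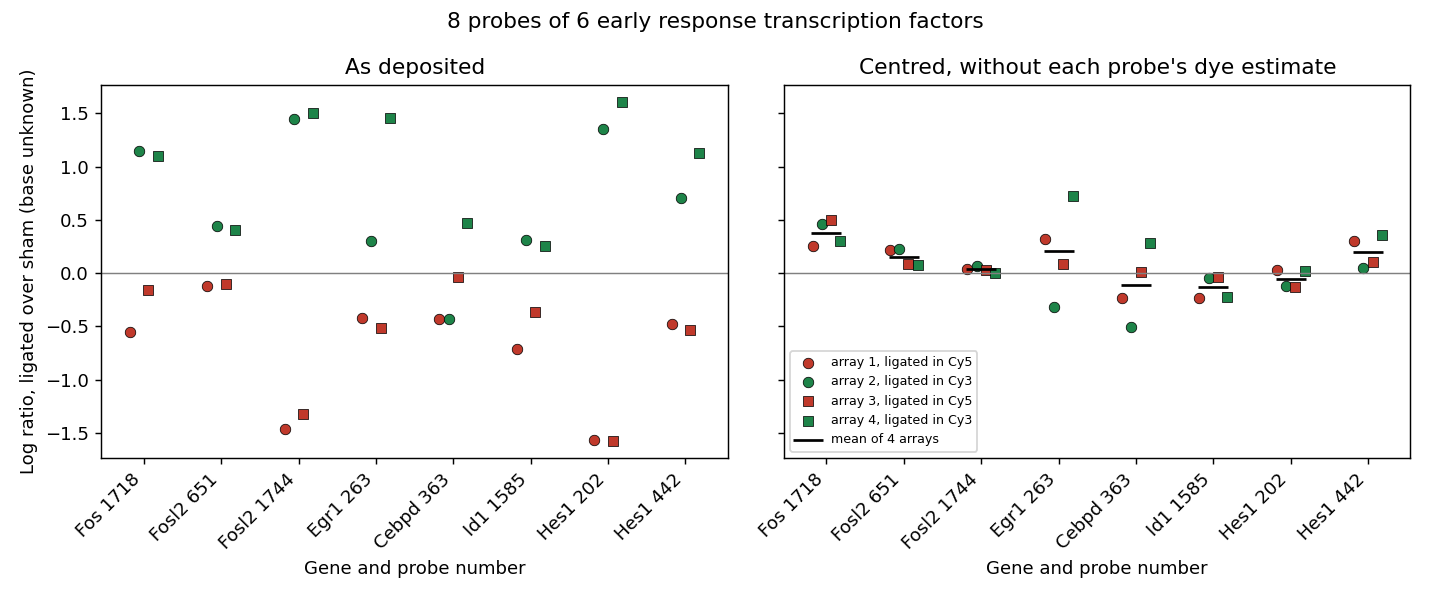
Log ratio of ligated over sham (vertical axis, base unknown) for the 8 probes (horizontal axis), as deposited on the left and as dye-adjusted values on the right. Each point is 1 array, coloured by the dye of the ligated sample, and the bar is the mean of 4 arrays. Fos is the only one of these probes with all 4 dye-adjusted values above 0.25.

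Fos, the partner of Jun in AP-1, was deposited at -0.55, 1.15, -0.16 and 1.10 on arrays 1 to 4. It was thus below 0 wherever ligated RNA carried Cy5 and above 0 wherever it carried Cy3, like the array medians. Centred, it was at 0.32, 0.40, 0.57 and 0.23, above 0 on all 4 arrays, which held for 1.50% of all probes. Centred values still hold the probe's dye term, which was 0.065 for Fos. The dye-adjusted values were 0.26, 0.46, 0.50 and 0.30, all above 0, which held for 7.08% of all probes. The estimate was 0.38 ± 0.084 (SE, n = 4 arrays), the 10th highest of all probes. It would be a 1.30-fold difference in base 2 and a 2.40-fold difference in base 10. Without replicate 1 or 3 the estimate was 0.44 or 0.32 and no longer passed. In those fits every probe shares an SE of 0.144.

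Fosl2, the other Fos family gene measured, was read by probes that differ. Probe 651 was deposited at -0.12, 0.44, -0.10 and 0.41, with dye-adjusted values of 0.22, 0.23, 0.09 and 0.08, all above 0; 7.08% of all probes had 4 such values above 0. Its estimate was 0.16 ± 0.084 (SE, n = 4). Probe 1744 was deposited at -1.47, 1.45, -1.32 and 1.50, far from 0 in a direction set by the dye. Its dye-adjusted values were 0.04, 0.07, 0.03 and 0.002, also above 0 on all 4 arrays, and its estimate was 0.036 ± 0.083 (SE, n = 4). Neither probe passed.

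Egr1 had the least even values of the 8 probes. It was deposited at -0.42, 0.30, -0.51 and 1.46, and its dye-adjusted values were 0.32, -0.31, 0.08 and 0.72. Array 2 was below 0 and array 4 was the highest of any of the 8 probes. The estimate was 0.20 ± 0.094 with limma's shared spread; from its own 4 values alone the SE was 0.27. Without replicate 2 the estimate was 0.46, and without replicate 4 it was -0.055. In those fits every probe shares an SE of 0.086.

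Cebpd, the acute phase C/EBP factor, was deposited at -0.43, -0.43, -0.036 and 0.47. Its dye-adjusted values were -0.24, -0.50, 0.01 and 0.28, again lowest on array 2 and highest on array 4. The estimate was -0.11 ± 0.090 (SE, n = 4) and did not pass; the SE from its own values was 0.21. Without replicate 4 it was -0.31, and without replicate 2 it was 0.083. In those fits every probe shares an SE of 0.086.

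Id1, the helix-loop-helix inhibitor, was the lowest of the 8 probes. It was deposited at -0.71, 0.31, -0.37 and 0.26, and its dye-adjusted values were -0.23, -0.04, -0.03 and -0.22, below 0 on all 4 arrays. How many of all probes had 4 such values below 0 was not counted. The estimate was -0.13 ± 0.084 (SE, n = 4) and did not pass, with 17.0% of all probes at or below it.

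Hes1, the Notch target, was read by 2 probes that differ. Probe 442 was deposited at -0.48, 0.70, -0.53 and 1.13, with dye-adjusted values of 0.30, 0.05, 0.10 and 0.35, all above 0. Its estimate was 0.20 ± 0.085 (SE, n = 4). Probe 202 was deposited at -1.57, 1.35, -1.57 and 1.61, with dye-adjusted values of 0.03, -0.12, -0.13 and 0.02, on both sides of 0. Its estimate was -0.050 ± 0.084 (SE, n = 4). Probe 442 was above probe 202 on 4 of 4 arrays after dye adjustment, and neither passed.

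The dye term was not used to choose the genes, and it separates the probes of Fosl2 and of Hes1. It was -0.63 for Fosl2 probe 1744 and -0.72 for Hes1 probe 202, the 4.55th and 1.34th percentiles of all probes. For Fosl2 probe 651 and Hes1 probe 442 it was 0.54 and 0.097. All probes were divided by dye term into 10 bins. In the lowest bin, where probes 1744 and 202 both lie, the log ratio of the operation had an SD of 0.053 over probes, its highest value was 0.080, and 0 of 193 probes passed. The SD was 0.13 in bin 6, which holds Fos, Egr1, Hes1 probe 442 and 10 called probes, and 0.17 in bin 10, which holds 29 called probes. In the bin of Fosl2 probe 1744 and Hes1 probe 202, log ratios of the operation thus spread less than in bins 6 and 10. The part of spot brightness in this spread was not tested, since brightness was not used here. Why the probes of Fosl2 and of Hes1 differ was not tested either.

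**Figure D2:**
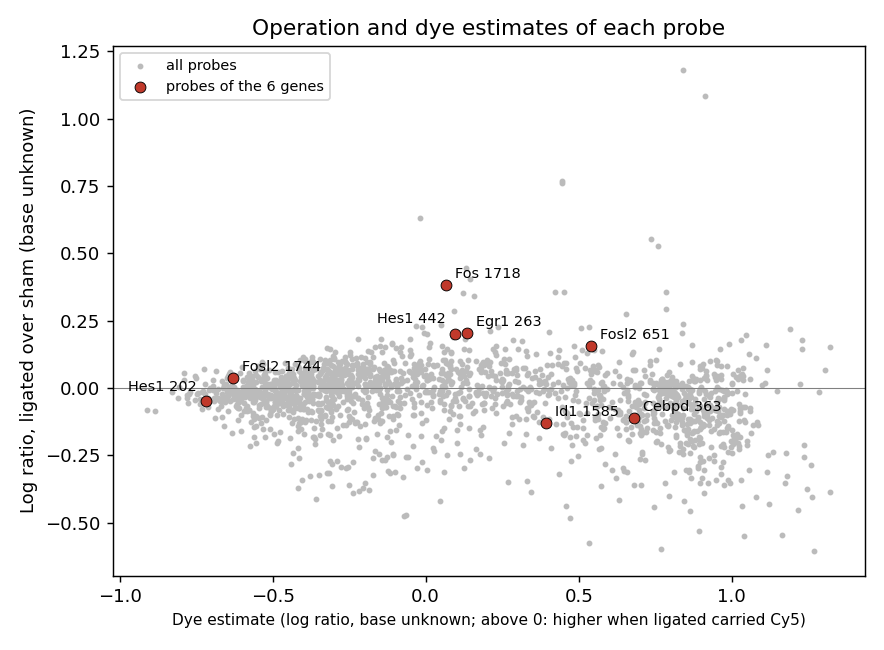
Estimate for the operation (vertical axis) against the dye term (horizontal axis) for all 1936 probes (grey) and the 8 probes (red), both as log ratios of unknown base. The cloud is narrow at the left, where Fosl2 probe 1744 and Hes1 probe 202 lie, and wide at the right.

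Values also moved with the order of the probe numbers. When the probes were divided into 16 equal blocks by number, block 3 departed from the dye curve of its array by a median of -0.23, -0.83, -0.26 and 0.28 on arrays 1 to 4, and block 4 by -0.026, -0.33, -0.17 and 0.073. Egr1 and Cebpd lie in block 3 and Hes1 probe 442 in block 4. Blocks 3 and 4 held 60 and 11 of the 93 probes that passed as lower and none of the 18 that passed as higher. Against the median of its own block, Egr1 was higher by 0.55, 0.43, 0.37 and 0.50 on arrays 1 to 4. Within block 3 it ranked 3, 6, 3 and 1 from the top, so the low value on array 2 was shared by its block. Hes1 probe 442 was above its block's median by 0.32, 0.28, 0.29 and 0.34, ranking 1, 6, 5 and 2. Cebpd stood at -0.0015, 0.31, 0.39 and 0.088 from the median of block 3, level with it on array 1 and above it on the others.

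Fos, in block 15, was above its block's median by 0.20, 0.27, 0.42 and 0.34, ranking 5, 4, 3 and 3 from the top. Fosl2 probe 651, in block 6, was above it by 0.20, 0.18, 0.12 and 0.14. Id1 lay below the median of block 14 on all arrays, by 0.22, 0.21, 0.028 and 0.057. Fosl2 probe 1744 and Hes1 probe 202 lay on both sides of the medians of their blocks.

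**Figure D3:**
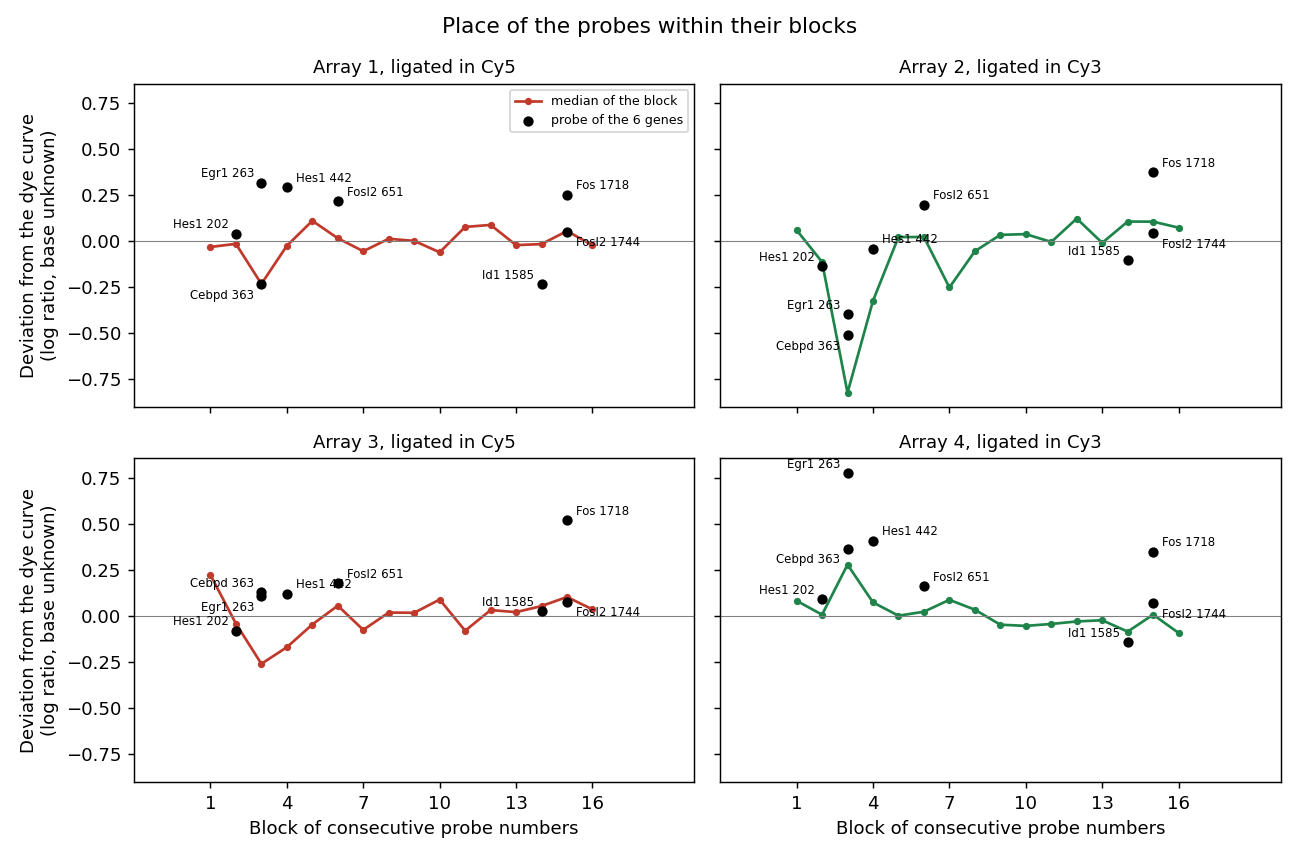
Deviation of each block's median from the dye curve of the array (line) and of the 8 probes (black points), in log ratio of unknown base, against block number, for each of the 4 arrays. Egr1 lies above the median of block 3 on every array, including array 2, where that median is -0.83, and array 4, where it is 0.28.

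With a separate dye curve for each block (the block-wise correction), 4 of the 8 probes passed, all as higher: Fos, Egr1, Hes1 probe 442 and Fosl2 probe 651. Among all probes 6.97% passed, 3.51% as higher and 3.46% as lower, and again nothing is read from the count. The estimates were 0.30 ± 0.041 for Fos, 0.45 ± 0.038 for Egr1, 0.30 ± 0.034 for Hes1 probe 442 and 0.16 ± 0.035 for Fosl2 probe 651 (SE, n = 4). Cebpd changed sign, from -0.11 to 0.17 ± 0.051, and did not pass. Id1 kept its sign at -0.11 ± 0.041, and Fosl2 probe 1744 and Hes1 probe 202 stood at 0.013 ± 0.036 and 0.018 ± 0.037; none of these passed. Egr1 was the highest of the 8 probes after this curve and Fos the highest before it.

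**Figure D4:**
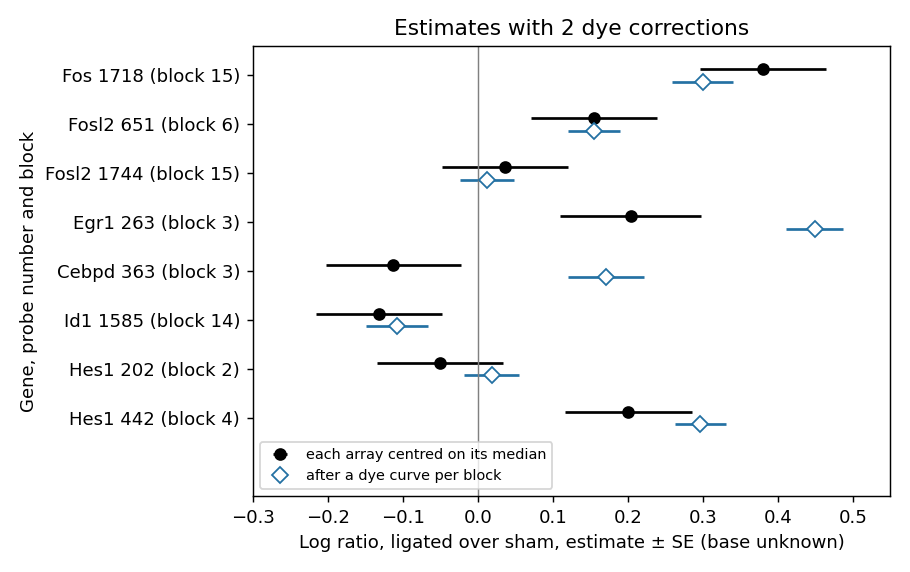
Estimate for the operation with its SE (horizontal axis, log ratio of unknown base) for the 8 probes (vertical axis), with arrays centred on their median (filled circles) and with the block-wise correction (open diamonds). The probes of blocks 3 and 4 move furthest: Egr1 from 0.20 to 0.45, Cebpd from -0.11 to 0.17 and Hes1 probe 442 from 0.20 to 0.30.

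Other genes of the same pathways were listed by function, and 66 of 253 had single-symbol probes. Of their 103 probes 6 passed as higher and 8 as lower, against 0.930% and 4.80% of all probes. The median log ratio was -0.0034, against -0.020 for all probes. All of the lower ones except Fn1 probe 1517 lie in block 3 or 4, where 15 of the 103 probes lie. No Jun gene, other Fos or EGR gene or other HES gene was among them, and of the C/EBP family only Ddit3 (CHOP), with -0.12 ± 0.084 (limma adjusted p = 0.643). Id3, the other ID family gene measured, had 0.087 ± 0.084 (limma adjusted p = 0.856). The early factors Myc and Klf10 passed at none of their 3 probes, which lay between -0.15 and 0.026.

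In the list of MAP kinase genes set up as a route to early genes, 18 probes of 12 genes had a median of -0.013, with 1 probe higher and 2 lower. Mapk6, an atypical MAP kinase, rose by 0.41 ± 0.084 (limma adjusted p = 0.000585). Mapk14, the p38α stress kinase, was centred at 0.42, -1.71, -0.079 and -1.02 at its block 3 probe, with a dye term of 0.77. Its dye-adjusted values were -0.35, -0.94, -0.85 and -0.25. Mapk14 fell by 0.60 ± 0.090 (limma adjusted p = 9.69e-07), while the SE from its own values alone was 0.21. The block-wise correction gave -0.30 ± 0.063 (limma adjusted p = 0.0138). Egfr, the receptor of epidermal growth factor, fell by 0.31 ± 0.092 at its block 3 probe (limma adjusted p = 0.0265), but not with the block-wise correction (-0.0052 ± 0.036, limma adjusted p = 0.959), and its other probe had -0.12. Mapk6 did not pass without replicate 1 or 3 (0.42 and 0.39), Mapk14 without replicate 3 (-0.47), and Egfr without replicate 1, 2 or 3 (-0.31, -0.064 and -0.31). The SE of the block 3 probe of Egfr from its own values was 0.25. With a robust prior that probe did not pass (limma adjusted p = 0.246).

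In the C/EBP and IL-6 route, 17 probes of 7 genes had a median of 0.017, and 0 passed in limma, while 1 did with the block-wise correction. That was probe 723 of Stat3, the factor that IL-6 activates, at 0.14 ± 0.035 (limma adjusted p = 0.0326; 0.14 ± 0.084 and 0.522 on centred values). The other Stat3 probe had 0.021 ± 0.040 with that correction (limma adjusted p = 0.854) and 0.058 on centred values. In the ID and BMP route, 13 probes of 7 genes had a median of -0.0034, and 1 passed as lower: Acvrl1, a receptor of the BMP family, at its block 3 probe (-0.35 ± 0.092, limma adjusted p = 0.00799). It did not pass with the block-wise correction (-0.076 ± 0.036, limma adjusted p = 0.260) and without replicate 1, 2 or 3 (-0.39, -0.11 and -0.32). Nor did it pass with a robust prior (limma adjusted p = 0.105), and the SE from its own values was 0.24. The other Acvrl1 probe, in block 14, had -0.036 ± 0.084 and did not pass (limma adjusted p = 0.991). In the Notch route, 5 probes of Dll1, Jag2 and Notch3 had a median of 0.041 and lay between -0.13 and 0.069, and 0 passed in limma with either correction.

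Among known targets of AP-1, EGR1 or C/EBP, 25 probes of 20 genes had a median of 0.040; 2 probes passed as higher (Ccn2 and Col1a1) and 3 as lower (Crp and both Fn1 probes). The other probes of Crp and Col1a1 had 0.0032 and 0.095 and did not pass. The Crp probe and 1 of the Fn1 probes that passed lie in block 3, and with the block-wise correction they had -0.25 and -0.22 instead of -0.61 and -0.55. On centred values their SEs from their own values were 0.24 and 0.25. With a robust prior the block 3 probe of Fn1 did not pass (limma adjusted p = 0.0586). Without replicate 3 the block 3 probe of Fn1 did not pass (-0.50), nor without replicate 1 or 3 the other Fn1 probe (-0.38 and -0.30) and Col1a1 (0.40 and 0.28). With the block-wise correction 5 passed as higher and 3 as lower. The 3 that were added were Ccnd1, cyclin D1 (0.24 ± 0.050, limma adjusted p = 0.0129), A2m, the acute phase protein α2-macroglobulin (0.14 ± 0.038, limma adjusted p = 0.0481), and Orm1, another acute phase protein (0.14 ± 0.035, limma adjusted p = 0.0307). On centred values these had 0.23, 0.16 and 0.099 (limma adjusted p = 0.102, 0.370 and 0.796). Without replicate 4 the estimates of Ccnd1 and A2m on centred values were 0.35 and 0.26.

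The named probes nearest to each gene over the 4 centred arrays were found by Euclidean distance, as a description, since such probes share the dye and the arrays. Nearest to Fos were Ccn2, the connective tissue growth factor, at 0.14 and Mapk6 at 0.21, where the median single-symbol probe lay at 1.30. Ccn2 also lies in block 15; it was centred at 0.39, 0.33, 0.55 and 0.13, beside 0.32, 0.40, 0.57 and 0.23 for Fos. Its estimate was 0.35 ± 0.084 (limma adjusted p = 0.00361), and it did not pass without replicate 1 or 3 (0.39 and 0.31). Nearest to Egr1 were Hes1 probe 442 at 0.52 and Igfbp4, which binds insulin-like growth factors, at 0.56, and Igfbp4 was also nearest to Hes1 probe 442 (0.18). Nearest to Fosl2 probe 651 was Stat3 probe 723 (0.086), in the same block 6, and then Arf1 (0.098). Cebpd lay nearest to Ifrd1 (0.32), in the same block 3, and Id1 to Aldoa (0.12).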

How the data were processed

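The deposited values are log ratios of the 2 channels of an array, 1 per probe and array, from poly(A) RNA made into Cy3- or Cy5-labelled cDNA, per the labels' protocols. For scanner, background correction, normalization and base of the log, the entry is: not given in the sources used here. Symbols came from the platform annotation, updated by gene ID through RefSeq. Arrays were centred on their median, and limma 3.58.1 (lmFit, eBayes; R 4.3.3) fitted an operation and a dye term over all 1936 probes. P-values were adjusted by Benjamini-Hochberg, and 0.05 was the threshold. Residual degrees of freedom were 2 and limma's prior 76.2, so an SE rests mainly on a spread pooled over probes. The number of arrays limits the precision. Dye curves were lowess curves (span 0.67) of each array against the probe's dye contrast, per array or, as the block-wise correction, per block. The fit was also run on simulated data with independent noise of a single spread. Those data held no block shifts, so the run cannot tell how the fit behaves with them.

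The members, gene lists and block size were chosen with earlier results of these data known. Named were all probes of the 6 genes, list probes past the threshold in either fit, direct family members and the 2 nearest named probes of each gene. Other settings were no centring, equal scaling, centring per block, quantile normalization, no dye term, both dye curves, the Cy5 over Cy3 reading, a robust prior, no moderation, averaged probes and leaving out each array.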

Additional observations from a re-analysis of the deposited data

How the results depend on the processing

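In limma, 111 of all probes, 14 of the 103 probes of other pathway genes and 1 of the 8 probes passed. In the same order, the counts were 3, 2 and 0 without centring, 62, 11 and 1 with equal scaling, 87, 13 and 3 centred per block, 12, 5 and 0 with quantile normalization and 7, 2 and 0 with a dye curve per array. They were 135, 15 and 4 with a dye curve per block, 67, 11 and 1 with a robust prior, and 40, 7 and 1 genes with probes averaged. In the Cy5 over Cy3 reading, which turns arrays 2 and 4, they were 1599, 83 and 5. That reading makes the operation and dye terms change places, so it counts probes by their dye term in the main setting. Without the dye term the counts were 0, 0 and 0 (5, 2 and 0 at an unadjusted p under 0.05), and without moderation 0, 0 and 0 (94, 9 and 1). Leaving out an array gave 12 to 241, 4 to 25 and 0 to 2. The split of higher and lower calls was 18 and 93 in the main setting, 15 and 47 with equal scaling, 68 and 67 with a dye curve per block, 22 and 65 centred per block, and 9 and 3 with quantile normalization. It was 3 and 0 without centring and 7 and 0 with a dye curve per array.

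Settings that change only the spread (no dye term, robust prior, no moderation) leave an estimate as it is. Over the settings that can move it, the log ratio of Fos lay between 0.29 (centred per block) and 0.44 (without replicate 1), apart from 0.065 in the Cy5 over Cy3 reading. In that reading the operation and dye terms change places, so each value is the probe's dye term in the main setting. Its sign was opposite to that of the main estimate for Cebpd (0.68), Id1 (0.39) and Fosl2 probe 1744 (-0.63), each past the threshold. Among the pathway genes the sign was opposite for A2m (-0.11), Crp (1.27), Egfr probe 327 (0.86), Fn1 (1.04 and 0.90), Mapk14 (0.77), Nr3c1 probe 340 (0.33) and Xbp1 (0.53). Each ratio already pairs a ligated with a sham sample on its array. No further pairing was used, because all 4 arrays form 1 group.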

Other observations

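Of 44 liver transcription factors and nuclear receptors listed, 15 were measured by 22 probes, with a median log ratio of -0.053; 3 probes passed as higher (both of Nr0b2, the small heterodimer partner, and 1 of Rxrg) and 2 as lower (1 of Nr3c1 and Xbp1). Rxrg, a retinoid X receptor, had 0.27 ± 0.084 at probe 582 (limma adjusted p = 0.0337) and 0.28 ± 0.040 with the block-wise correction (limma adjusted p = 0.00148), while its probe 1540 had -0.067. It did not pass without replicate 1, 2 or 3 (0.27, 0.24 and 0.27). Nr3c1, the glucocorticoid receptor, fell by 0.35 ± 0.089 at its block 3 probe (limma adjusted p = 0.00705), and had -0.091 ± 0.049 with the block-wise correction (limma adjusted p = 0.329). That call was also lost without replicate 1, 2 or 3 (-0.30, -0.15 and -0.39), and its other probes had -0.039 and -0.13. The SE of the block 3 probe of Nr3c1 from its own values was 0.20. Xbp1 had -0.58 ± 0.084 at its block 4 probe (limma adjusted p = 4.57e-07). With the block-wise correction it had -0.46 ± 0.035 (limma adjusted p = 1.01e-05). Leaving out each array gave Xbp1 values from -0.64 to -0.52.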
